A study of Schizosaccharomyces pombe with 4 samples.

Results

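The weakly expressed non-coding RNAs of fission yeast (*Schizosaccharomyces pombe*) were followed from wild type into a strain without the gene set2. A weakly expressed non-coding RNA was taken as a gene of the SPNCRNA series whose mean log2 value over both wild-type libraries was above 3.4 and below 7.0. These limits correspond to 10.6 and 128 normalized counts. The rule left out 4 further IDs, but none of them lay inside the limits. There were 245 members among 6986 genes in the deposited table and among 1524 SPNCRNA rows, of which 1195 lay at 7.0 or more and 84 at 3.4 or less. The wild-type values chose the members, so their wild-type levels are given as a description, and each change from wild type shares those values.

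RNA-seq of total RNA was made from 2 libraries of the wild-type strain WT972 (WT) and 2 of the set2 deletion strain SPKK1227 (set2d). All cells were grown asynchronously in YEA medium at 30 °C to log phase, and the groups differ by genotype alone in the labels. Whether the libraries of a group were grown as separate cultures is not in the labels, and the p-values below then cover only the spread between these 4 libraries, part of which may be technical. In bulk samples, fewer cells with an RNA and less of it per cell cannot be told apart.

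Set2 places methyl groups on lysine 36 of histone H3 along genes that are being transcribed. In yeasts this mark is known to recruit a histone deacetylase complex that restrains transcription from within genes and from poorly expressed chromatin. Many long non-coding RNAs of fission yeast are made at low levels and removed by the nuclear exosome. Others lie antisense to coding genes or between them, and the domains next to the telomeres are normally kept nearly silent.

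The annotation of the assembly ASM294v3 placed 219 of the 245 members by locus tag and left 26 unplaced. It lists 207 of them as long non-coding RNAs, 10 as other non-coding RNAs, 1 as a small nucleolar RNA and 1 as a small nuclear RNA. The placed members were 75 to 2254 bases long, with a median of 510 bases. Because the authors counted on the build ASM294v2, this annotation served for names, lengths, neighbours and distance classes, and no coordinates are given.

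Members sat close to the lowest value the table can hold. Every deposited value is floored at 10 normalized counts, and 12, 6, 27 and 15 members were at that floor in the first and second WT library and the first and second set2d library. No member was at the floor in both WT libraries, 18 were there in 1 of them, 12 were there in both set2d libraries, and 208 were above it in all 4. The median member had 58.0 and 60.9 normalized counts in the WT libraries and 60.5 and 63.5 in the set2d libraries, against medians over all genes of 5175, 5049.6, 5347 and 5518. In set2d replicate 1, all 193 members above the floor and under 200 normalized counts fell on whole-number steps of 1.06 normalized counts, allowing 0.012 of a step. Over the members above the floor in that library, without the 27 at it, the median was 67.0 counts, with a counting error of 12.2%. The floor there rested on 9.41 counts. The depth of the other 3 libraries is unknown. The gap between both libraries of a group had a median of 0.43 on the log2 scale in WT and 0.47 in set2d over the members, and it passed 1 in 36 members in WT and in 34 in set2d. Across members the log2 values of the WT libraries correlated at r = 0.804 and those of the set2d libraries at r = 0.899. These members were chosen within a narrow WT range, which limits the first value.

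**Figure D1:**
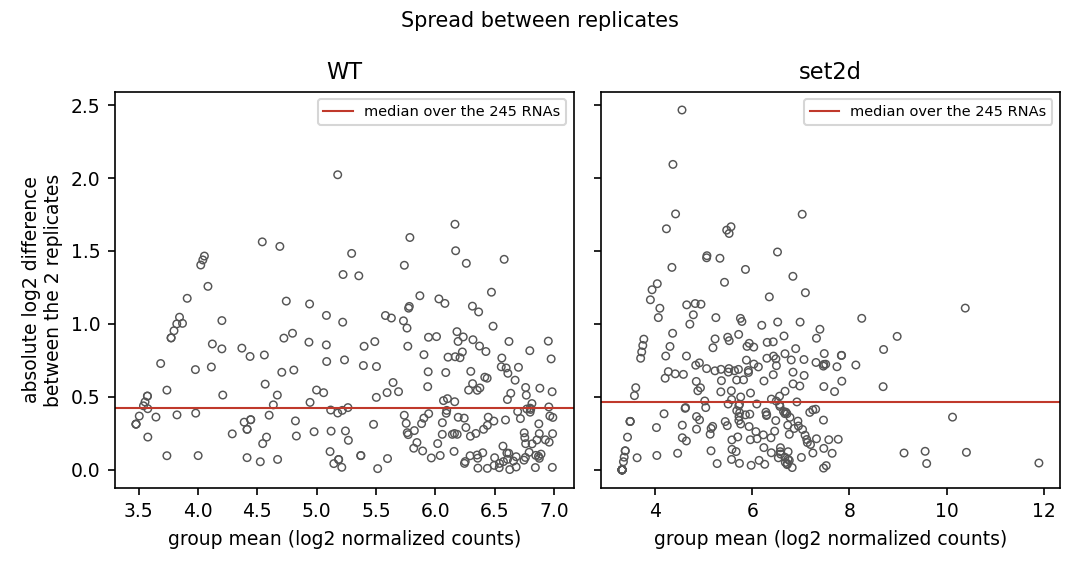
Absolute difference on the log2 scale between both libraries of a group against the group's mean log2 normalized counts, for WT (left) and set2d (right), with 1 point for each of the 245 members and a line at the median. The median difference is 0.43 in WT and 0.47 in set2d, and differences above 1 occur at low and at higher means in both groups.

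The deleted gene was checked first. The gene set2 had 10503 and 8665 normalized counts in the WT libraries and 2257 and 1448 in the set2d libraries. The set2d libraries had less than the WT libraries, but neither was at the floor. Its log2 change, set2d minus WT, was -2.40 (SE 0.22, limma adjusted p = 0.00041).

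Most weakly expressed non-coding RNAs did not pass the test between WT and set2d, and a minority rose strongly. limma was run on the log2 values of all genes that at least 2 libraries held above the floor, with Benjamini-Hochberg adjustment over all 6633 genes tested and a threshold of 0.05. Of the 245 members, 239 were tested, 24 were higher in set2d, 6 were lower and 209 did not pass. The share of all genes tested that was called was 11.6% higher and 2.77% lower. The members' own shares were near that background, with 2.51% lower. Without adjustment, 35 members were higher and 19 lower at a p under 0.05. The 6 members not tested (SPNCRNA.208, SPNCRNA.348, SPNCRNA.441, SPNCRNA.464, SPNCRNA.508 and SPNCRNA.912) were above the floor in 1 WT library alone.

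The median log2 change of the tested members was 0.19, with quartiles of -0.42 and 0.67, against 0.01 over all genes. It lay above 0 in 142 members and below 0 in 97, and its sign turned with quantile normalization, to -0.12, where that of all genes was -0.07. The members' values were less precise than those of other genes, with a median standard error of 0.43 against 0.15 over all genes. A log2 change of 1 or more was reached upward by 37 of the 239 tested members and downward by 22, and 13 and 16 of these did not pass the test. The background share at that size was 4.94% of all genes upward and 1.43% downward. Both set2d libraries lay above both WT libraries in 83 of the 239 (34.7%) and below them in 52, beside 31.5% and 26.2% of all genes.

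**Figure D2:**
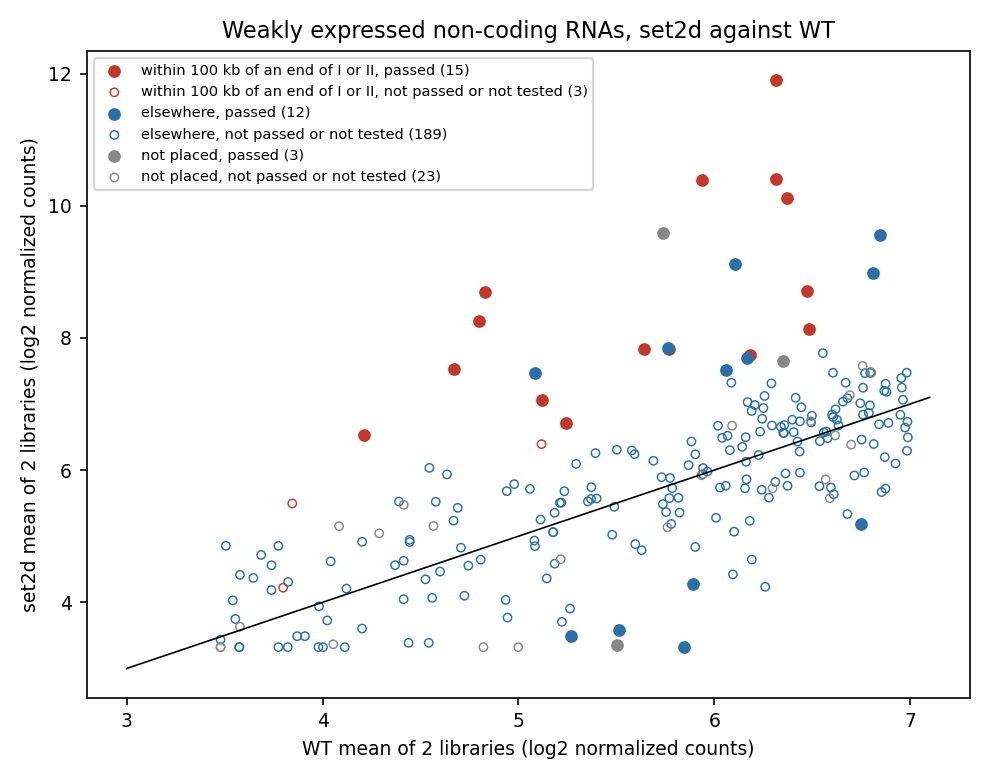
Mean log2 value in set2d against the mean log2 value in WT for the weakly expressed non-coding RNAs, with 1 point per member, the line of equality, filled points for members that passed limma's test, open points for the others, and colours for the position in the genome. Most of the 245 points lie around the line, while 24 members rise from it by 1.29 to 5.58 on the log2 scale and 6 fall below it.

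The increases were found in every band of WT level. Of 60 tested members with a WT mean log2 under 5, 4 were higher and 0 lower. Of 61 members between 5 and 6, 8 were higher and 5 lower, and of 118 members from 6 upward, 12 were higher and 1 lower. From the lowest band up, the shares higher were 6.67%, 13.1% and 10.2%, beside 11.6% of all genes tested. The shares lower were 0%, 8.20% and 0.85%, beside 2.77%. The lowest band holds members for which a fall is bounded by the floor.

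Members close to an end of chromosome I or II made up most of those that rose. Of 18 members within 100 kb of these ends, 15 were higher, 0 were lower and all 18 had a change above 0, with a median of 2.21. The background was as high: 113 of 149 genes of any kind tested in these domains were higher, or 75.8%, with the same median of 2.21. By arm, 4 of 5 members were higher at the left end of chromosome I, 6 of 7 at its right end, 3 of 3 at the left end of chromosome II and 2 of 3 at its right end. Of all genes tested at these ends, in the same order, 59.6%, 83.3%, 87.5% and 78.6% were higher, and 7.14% were lower at the last. The 3 near-end members that did not pass were SPNCRNA.278 with a change of 0.42, prl37 with 1.65 and SPNCRNA.117 with 1.28.

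Members were followed by distance from the ends, beside all genes tested in the same class. Within 50 kb, 4 of 4 members were higher, with a median change of 2.82, beside 78.2% of all genes with a median of 3.13. From 50 to 100 kb 11 of 14 were higher, with a median of 2.09, beside 74.5% and 1.80. From 100 to 150 kb 1 of 10 was higher, with a median of 0.43, beside 37.4% and 0.45. The share of all genes thus fell with distance as well, and the medians in this last class were nearly equal. From 150 to 200 kb 1 of 3 members was higher, beside 22.1% of all genes. Beyond 200 kb on chromosomes I and II, 3 of 142 were higher and 4 lower, with a median of 0.08, beside 8.7% of all genes higher and 2.97% lower with a median of -0.01. On chromosome III, which was not split by distance, 2 of 42 were higher and 1 lower, with a median of 0.19, beside 12.3% and 2.18% of all genes. Among the unplaced members 2 of 24 were higher and 1 lower, with a median of 0.02, beside 8.49% and 4.72% of all unplaced genes. Over all placed members outside the 100 kb domains, 7 of 197 were higher, or 3.55%, beside 10.1% of all genes placed there, and 5 were lower, beside 2.78%. The difference between these shares was not tested, and the median standard error of these members was 0.44 against 0.15 for all genes placed there.

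**Figure D3:**
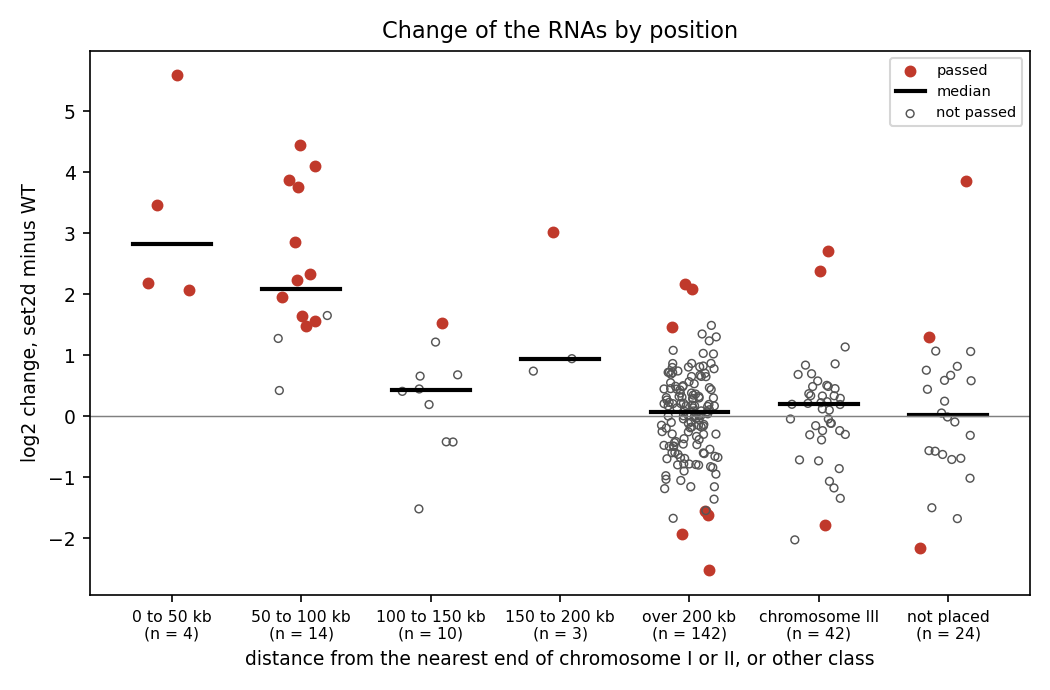
Log2 change, set2d minus WT, of each tested weakly expressed non-coding RNA by its class of distance from the ends of chromosomes I and II, with chromosome III and unplaced members apart and a bar at the median of each class. The classes within 100 kb of an end have medians of 2.82 and 2.09, and the class beyond 200 kb has a median of 0.08.

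The largest increase was that of prl61, a member of the prl set of polyadenylated RNAs without a long open reading frame, within 50 kb of the right end of chromosome I. It had 109 and 58.5 normalized counts in WT and 3884 and 3760.1 in set2d. Both set2d libraries thus stood far above both WT libraries and close to each other. The log2 change was 5.58 (SE 0.32, limma adjusted p = 4.56e-05), and 92.1% of prl61 overlaps SPAC186.07c on the opposite strand, which rose by 5.85 with it.

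At the left end of chromosome II, SPNCRNA.1304 had 48.6 and 77.4 normalized counts in WT and 910.2 and 1963 in set2d. The set2d libraries differed from each other by a factor well under the gap between the groups. Its change was 4.45 (SE 0.42, limma adjusted p = 0.000434), and the coding gene cmt2, which covers 18.3% of it on the other strand, rose as well, by 4.0. SPNCRNA.1303, which also lies next to cmt2 and has no annotated overlap, had 111 and 61.7 in WT and 984 and 1263 in set2d. The groups did not overlap, and the change was 3.75 (SE 0.35, limma adjusted p = 0.000423). SPNCRNA.287, nearer that end, had 38.4 and 20.1 in WT against 438 and 213 in set2d. Its libraries were spread within each group but did not overlap between groups, with a change of 3.46 (SE 0.49, limma adjusted p = 0.0027). SPNCRNA.287 has a near-identical copy elsewhere in the genome, so its reads may be shared.

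At the right end of chromosome II, SPNCRNA.1695 had 64.8 and 97.6 normalized counts in WT and 1417 and 1304 in set2d. Its set2d libraries were close together and above both WT libraries, and it changed by 4.10 (SE 0.30, limma adjusted p = 0.000156). It overlaps the coding gene fub2 on the opposite strand over 60.3% of its length, and fub2 changed by 4.23. SPNCRNA.446, with no annotated overlap, had 26.2 and 30.8 in WT and 339.9 and 505 in set2d. The WT libraries were almost alike and both set2d libraries were higher, with a change of 3.86 (SE 0.36, limma adjusted p = 0.000433). It lies between fub2 and pho1, the gene of a secreted acid phosphatase, and pho1 was lower in set2d by limma, with a change of -1.04 (adjusted p = 0.00261).

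On chromosome I, SPNCRNA.280 had 24.9 and 26.1 normalized counts in WT and 186 and 182 in set2d. The libraries of each group were almost alike, and the change was 2.85 (SE 0.36, limma adjusted p = 0.00175). Its coding neighbours are SPAC869.03c, annotated as a urea transporter, and yhb1, a nitric oxide dioxygenase, and both rose, by 3.56 and 1.20. At the other end of chromosome I, SPNCRNA.603 had 22.1 and 15.5 in WT and 95.6 and 90.3 in set2d. Even its set2d libraries stayed below 128, so it rose within the weak range, by 2.33 (SE 0.42, limma adjusted p = 0.00824). It lies next to ght3, a hexose transporter gene, which rose by 3.20. The remaining near-end members that rose were SPNCRNA.282 (2.23), SPNCRNA.136 (2.19), SPNCRNA.601 (2.07), SPNCRNA.137 (1.95), SPNCRNA.281 (1.65), SPNCRNA.284 (1.56) and SPNCRNA.283 (1.48), each given as its log2 change. SPNCRNA.136 and SPNCRNA.601 lie on opposite strands of one another and had nearly the same values, so they cannot be counted as independent, and both have near-identical copies.

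The coding genes next to the near-end members that rose moved in the same direction in most cases. The nearest measured coding genes on both sides of these 15 members were 20 distinct genes. Of these, 16 were higher and 1, pho1, was lower, with a median change of 3.48. SPBPB21E7.05 was not tested, and SPAC186.07c, cmt2 and fub2 overlap a member. Of all genes tested in these domains, 75.8% were higher and 1.34% lower, with a median of 2.21. The shares were not tested against one another. Among the 20 neighbours were pfl9, of the family of flocculin-like cell surface genes, with 2.42, and SPAC186.08c with 5.43. The amidase gene SPAC869.01 had 4.59 and nrg1, annotated as an amino-acid permease, had 4.42. For the 7 placed members that rose elsewhere, 5 of 14 distinct neighbours were higher and 1, set2 itself, was lower, with a median of 0.36. Among the 14, mug96 was not tested, and ppc1, which was higher, lies 73473 bases from its member. Of all genes placed outside the end domains, 10.1% were higher and 2.78% lower.

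**Figure D4:**
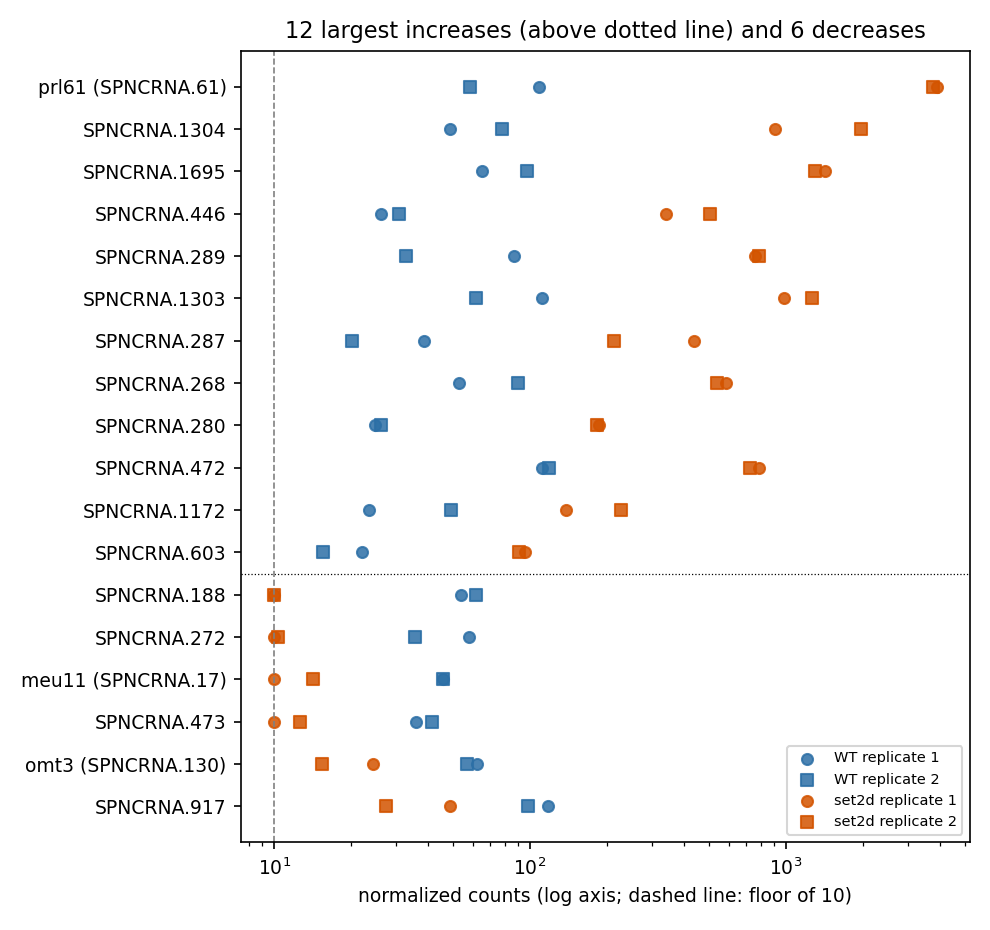
Normalized counts on a log axis of the named weakly expressed non-coding RNAs in each of the 4 libraries, for members called higher and called lower in set2d, with the floor of 10 normalized counts drawn. In every member shown both set2d libraries lie on one side of both WT libraries, and 4 of the 6 lower members have a set2d library at the floor.

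Outside the 100 kb end domains, the largest increase of a placed member was next to the deleted gene. This locus falls in the class from 150 to 200 kb, where 22.1% of all genes tested were higher. SPNCRNA.268, whose neighbours are set2 and spd1, a gene for an inhibitor of ribonucleotide reductase, had 52.7 and 90.04 normalized counts in WT and 581 and 536 in set2d. Both set2d libraries were far above both WT libraries, with a change of 3.02 (SE 0.35, limma adjusted p = 0.00114). set2 fell in the same libraries, and spd1 did not pass, with a change of 0.08. The deletion alters the chromosome beside SPNCRNA.268, so an effect of the altered locus and one of the loss of Set2 cannot be told apart for this RNA.

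On chromosome III, SPNCRNA.472 had 111 and 119 normalized counts in WT and 788 and 722 in set2d. The libraries of each group were close together and the groups far apart, with a change of 2.71 (SE 0.27, limma adjusted p = 0.000527). It lies next to bfr1, the gene of a brefeldin A efflux transporter, which was higher by 1.44 (adjusted p = 0.00534), and next to wee1, the mitotic inhibitor kinase, which did not pass, with -0.42. SPNCRNA.289, which was not placed, had 86.8 and 32.8 in WT and 759 and 783 in set2d. Its WT libraries differed more from each other than its set2d libraries did, and the change was 3.85 (SE 0.45, limma adjusted p = 0.00122).

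SPNCRNA.1172 on chromosome III and SPNCRNA.359 on chromosome II both rose. Each lies in the longest stretch without a measured coding gene of its own chromosome, a feature chosen once their values were known. SPNCRNA.1172, between meu27 and ppc1 on chromosome III, had 23.5 and 48.9 normalized counts in WT and 138 and 226 in set2d. The groups did not overlap, and the change was 2.38 (SE 0.47, limma adjusted p = 0.0129). SPNCRNA.480 in the same stretch had 10, 27.1, 21.2 and 28.4 in the 4 libraries and did not pass, with a change of 0.58. The non-coding gene SPNCRNA.481, which overlaps 16.3% of SPNCRNA.1172 on the opposite strand, was higher by 1.95 (limma adjusted p = 0.0289). It was at the floor in both WT libraries. The nearest measured coding gene on one side, ppc1, lies 73473 bases from SPNCRNA.1172 and was higher by 0.70 (limma adjusted p = 0.0086). On the other side meu27, at 4401 bases, did not pass, with 0.60. SPNCRNA.359, between rpb1, which encodes the largest subunit of RNA polymerase II, and yox1 on chromosome II, had 59.3 and 49.7 in WT and 284 and 186 in set2d. It rose by 2.08 (SE 0.37, limma adjusted p = 0.00757), while rpb1 (-0.11) and yox1 (0.09) did not pass, and it has a near-identical copy elsewhere.

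The other members that were higher outside the end domains, or without a place, were SPNCRNA.1346, SPNCRNA.1310, prl57 and SPNCRNA.514. SPNCRNA.1346 had 96.0 and 132 normalized counts in WT and 369 and 695 in set2d, a change of 2.17 (SE 0.38, limma adjusted p = 0.00715). Nearly all of it, 97.9%, lies opposite SPBC1271.07c, annotated as an N-acetyltransferase, which rose by 2.71. SPNCRNA.1310, from 100 to 150 kb from an end, rose by 1.53 between alr2, which rose by 1.34, and the amino-acid transporter gene aat1, which rose by 0.78. prl57 rose by 1.45 between SPAC6C3.03c and the citrate synthase gene cit1, neither of which passed, and the unplaced SPNCRNA.514 rose by 1.29.

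Fewer members fell, and most of those that did reached the floor. SPNCRNA.188 had 53.9 and 61.3 normalized counts in WT and was at the floor of 10 in both set2d libraries. It was the only called member with both set2d libraries there, so it was at least 5.75-fold lower (limma adjusted p = 0.0076). SPNCRNA.272, which was not placed, had 58.0 and 35.5 in WT against 10 and 10.4 in set2d. One set2d library was at the floor and the other just above it, and the change was -2.15 (SE 0.48, limma adjusted p = 0.0218). The RNA meu11, of the meu set of transcripts that rise in meiosis, had 45.6 and 45.8 in WT and 10 and 14.2 in set2d. Its WT libraries were almost alike and both set2d libraries lower, with a change of -1.94 (SE 0.46, limma adjusted p = 0.027).

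SPNCRNA.473 had 35.9 and 41.3 normalized counts in WT and 10 and 12.6 in set2d. Both set2d libraries were at or just above the floor, with a change of -1.78 (SE 0.46, limma adjusted p = 0.0379). The other lower members stayed above the floor in all 4 libraries. The RNA omt3, annotated as a long non-coding RNA of the meiotic Smp foci, had 62.1 and 56.8 in WT and 24.4 and 15.3 in set2d, a change of -1.62 (SE 0.45, limma adjusted p = 0.0475). It lies next to mei2, which encodes an RNA-binding protein needed to start meiosis, and mei2 was lower as well, with 755 ± 337 normalized counts in WT and 220 ± 22.8 in set2d (SD, n = 2; limma change -1.71, adjusted p = 0.014). SPNCRNA.917 had 117 and 98.4 in WT and 48.9 and 27.4 in set2d, a change of -1.56 (SE 0.43, limma adjusted p = 0.046). The groups did not overlap in either of these RNAs. Over the 5 placed lower members, 10 distinct coding neighbours held 1 gene that was higher and 1, mei2, that was lower, with a median change of 0.02. Of all genes placed outside the end domains, 10.1% were higher and 2.78% lower.

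Fits that left out 1 library called fewer members. In such a fit 1 group has a single library, which is assumed to vary like those of the other group. In every fit without 1 of the 4 libraries, 9 of the 24 higher members stayed called, 7 of them near the ends (prl61, SPNCRNA.280, SPNCRNA.446, SPNCRNA.603, SPNCRNA.1303, SPNCRNA.1304 and SPNCRNA.1695), with SPNCRNA.268 and SPNCRNA.472 elsewhere. Of the 6 lower members, SPNCRNA.188 and meu11 stayed called. The count of higher members was 13 without set2d replicate 1 and 15 without set2d replicate 2, against 24 with all libraries.

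Weakly expressed non-coding RNAs often share their place in the genome with another gene, and no source used here gives the strand setting of the counting. Reads of overlapping genes can therefore not be told apart. Of the members, 29 overlap a measured coding gene on the opposite strand, of which 4 were higher and 0 lower, with a median change of 0.19. A further 16 overlap a coding gene on the same strand alone, with 0 higher, 0 lower and a median of -0.16. Measured non-coding genes alone overlap 41 members, of which 40 were tested, with 4 higher and 1 lower. Another 76 overlap only genes outside the table, with 6 of 75 tested higher and 3 lower. With no annotated overlap there were 57 members, of which 55 were tested, 8 were higher and 1 was lower, with a median of 0.21. In the same order, the shares higher were 13.8%, 0%, 10%, 8% and 14.5%, beside 11.6% of all genes tested. The shares lower were 0%, 0%, 2.5%, 4% and 1.82%, beside 2.77%. These counts are small, and no difference between the classes was tested.

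The largest increases were shared by members and the genes they overlap, while the other pairs were looser. Over 84 tested members with a measured overlap, the changes of member and longest overlapping gene correlated at r = 0.84, as a description across pairs that may share reads. Both genes were higher in 7 pairs and both lower in 0, and over the 77 pairs left without those 7 the correlation was 0.338. The sign was the same in 54 pairs and opposite in 30, and in 10 pairs 1 gene alone was called. Where both genes are members a pair can enter from each side, so the 84 pairs are 78 distinct ones. Of the 36 pairs in which the member lies wholly inside its partner, 24 on opposite strands and 12 on the same one, the partner's value was at least that of the member in all 4 libraries of all 36. Genes on opposite strands had nearly equal values in some places and values far apart in others. The coding gene nog2 had 25559.5 and 21139 normalized counts in WT and 44527 and 44737 in set2d. SPNCRNA.847, which lies opposite nog2 where both contain snR191, had 25324 and 21050 in WT and 44203 and 44282 in set2d. Joint changes of overlapping genes may therefore not be independent. Whether reads of the member were counted for both genes was not tested.

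In some pairs the call or the sign differed. The coding gene lsk1, which encodes a kinase of the RNA polymerase II tail, rose by 1.42, while SPNCRNA.240, which overlaps it on the same strand over 10.6% of its length, had a change of -1.15 and did not pass. SPNCRNA.1621, with 80.6% of its length opposite the alpha-glucan synthase gene mok13, had 0.36 and did not pass, while mok13 rose by 0.98. SPNCRNA.982 lies wholly within mok11 on the same strand and had nearly the same change, 1.24 beside 1.14 for mok11, but a larger standard error, 0.43 against 0.12, and mok11 alone passed. The small nucleolar RNA snR191, wholly within the ribosome assembly gene nog2 on the same strand, had 0.09, not passed, beside 0.94 for nog2. In reverse, meu11 fell while SPNCRNA.1463, which contains it on the same strand, did not pass, with a change of -0.38. prl57 rose while SPNCRNA.813, which covers 6.18% of it, did not pass, with 0.14. The difference within a pair was not tested.

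**Figure D5:**
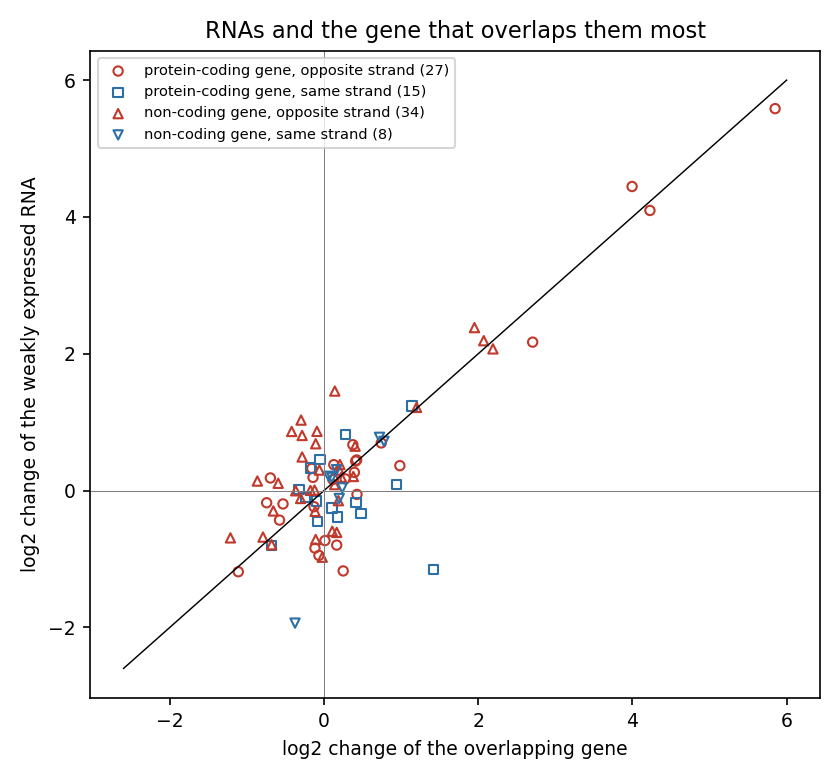
Log2 change, set2d minus WT, of each weakly expressed non-coding RNA against that of the measured gene it overlaps over the longest stretch, for 84 tested pairs, with the line of equality, colours for the strand of the overlapping gene and shapes for its kind. The pairs with the largest increases lie near the line of equality, and the correlation was 0.84 over all pairs and 0.338 without the 7 in which both genes rose.

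Some members have a name of their own. Of 15 members of the prl set, 2 were higher (prl61 and prl57) and 0 lower, with a median change of 0.45. The share higher was 13.3%, near the 11.6% of all genes tested, of which 2.77% were lower. Of 3 meu RNAs, meu11 was lower, and meu19 (-1.07) and meu3 (0.84) did not pass. The RNA srp7, annotated as part of the signal recognition particle, had 115 and 102 normalized counts in WT and 144 and 90.8 in set2d. Its set2d libraries lay on both sides of the WT libraries, with a change of 0.08. The small nucleolar RNA snR191 (53.9 and 70.3 in WT, 48.9 and 87.5 in set2d) and snR48, listed as a small nuclear RNA (40.04 and 49.7 in WT, 27.6 and 38.3 in set2d) had changes of 0.09 and -0.46. The groups overlapped in the first and not in the second, and neither passed. snR48 lies wholly within the coding gene rps3 on the same strand, which had 232735 and 233255 in WT. How fully these libraries capture such RNAs and srp7 is unknown, so their low values need not mean low levels in the cell. The RNA aal1, named as an ageing-associated long non-coding RNA, had 22.1 and 13.6 in WT and was at the floor in both set2d libraries, with a change of -0.79 that did not pass. The RNA fbp1-ot2 (-0.15) and the RNA cti6-antisense-1 (0.27) did not pass either.

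In set2d, 182 of the 245 members kept a mean log2 value inside the limits that chose them in WT. Above the upper limit of 7.0 were 47 members, among them 22 of the 24 that rose, and at or below 3.4 were 16. The highest set2d value of any member was 3884 normalized counts. The WT values set the limits, so these counts are a description. When members were chosen on WT replicate 1 and the change was taken from WT replicate 2, or the reverse, 229 were tested each time and the median changes were 0.15 and 0.20.

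Values next to the limits were close to one another on either side. Just inside the lower limit, SPNCRNA.1255, SPNCRNA.208 and SPNCRNA.508 had a WT mean log2 value of 3.48, and just outside it SPNCRNA.325, SPNCRNA.387 and SPNCRNA.408 had 3.39. Just inside the upper limit, SPNCRNA.782, SPNCRNA.351 and SPNCRNA.1460 had 6.98, 6.99 and 6.99, and just outside it SPNCRNA.956, SPNCRNA.1497 and SPNCRNA.437 had 7.01, 7.04 and 7.04. Of the first group SPNCRNA.1255 alone was tested, and the members at the upper limit did not pass. The smallest spread between WT libraries was that of SPNCRNA.380, with 98.9 and 98.7 normalized counts in WT and 99.8 and 118 in set2d. The largest was that of SPNCRNA.512, with 18.0 and 72.9 in WT and 20.2 and 55.3 in set2d. In SPNCRNA.512 replicate 1 was low and replicate 2 high in both groups, and its change of -0.12 did not pass.

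The members were set beside more strongly expressed non-coding RNAs and weak coding genes. Of 1195 non-coding RNAs with a WT mean log2 value of 7.0 or more, 160 were higher (13.4%) and 43 lower (3.6%), with a median change of 0.08. By size alone the order was the reverse, since 66 of these 1195 RNAs had a log2 change of 1 or more against 37 of 239 members, whose median standard error was 0.43 against 0.20. Protein-coding genes in the same WT range as the members numbered 85, of which 84 were tested, 26 were higher (31.0%) and 0 lower, with a median of 0.49. Of these coding genes, 25 of 30 near the ends were higher, with a median of 4.03, and 1 of 54 elsewhere, with a median of -0.03. The shares were not tested against one another.

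The genes that limit non-coding RNAs in the nucleus changed little. A list of 31 genes of the nuclear exosome, its adaptors and nuclear RNA decay had 1 that was higher and 0 lower by limma. Without adjustment of p-values under 0.05 these counts were 4 and 0. The share higher was 3.23%, beside 11.6% of all genes tested, and 2.77% of all genes were lower. The difference was not tested. Changes in the list ran from -0.30 to 0.47, with a median of 0.06. The gene that was higher was mtr4, which encodes the helicase that feeds RNA to the exosome. It had 22121 and 20232 normalized counts in WT and 29033 and 29468 in set2d. Both set2d libraries were above both WT libraries, with a change of 0.47 (SE 0.11, limma adjusted p = 0.0233), and the call was lost in every fit without 1 library. The termination factor gene seb1 (0.43), the gene red1 (0.37), of a complex that brings meiotic RNAs to the exosome, and the poly(A) polymerase gene cid14 (0.33) did not pass, with limma adjusted p-values of 0.0956, 0.129 and 0.186.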

How the data were processed

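The authors deposited 1 log2 value per gene and library, which from the values is the log2 of normalized counts floored at 10. The build ASM294v2, the aligner STAR 2.5.4b and the counter featureCounts 1.5.0-p1 are named per the submitters' processing notes. No source used here gives the normalization, the annotation, the strand setting or any polyadenylation step.

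From these values limma 3.58.1 (R 4.3.3) was fitted with a mean-variance trend to 6633 genes above the floor in at least 2 of the 4 libraries. The two-sided p-values were adjusted by Benjamini-Hochberg over these genes, with a threshold of 0.05. Residual degrees of freedom were 2 and prior ones 6.16. Changes are differences of mean log2 values and are understated near the floor. Counting errors cover counting alone. The procedure was run on simulated data with independent noise in each library. Replicate differences that correlate between the groups were not simulated, so that run does not cover them. The members and lists were chosen with earlier results of these data known.

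The RefSeq annotation of ASM294v3 held 6840 of the 6986 locus tags, and an overlap meant at least 1 shared base. BLAST 2.17.0 marked 5 members as having a near-identical copy, at 95% identity over at least 50% of their length. Named were the 12 largest increases and up to 12 largest decreases among members that passed with separate groups, the rows nearest the limits, the smallest and largest WT spread, the longest overlapping genes, and 4 genes of the nuclear decay list. Other genes and members were named after their values were seen. That list held 32 names for 31 genes.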

Additional observations from a re-analysis of the deposited data

How the results depend on the processing

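Counts of higher and lower members were 24 and 6, and of all genes 767 and 184. Without the filter on low values 8 members were higher, 6 near the ends and 2 elsewhere or unplaced, and set2 kept its change of -2.40 but missed the threshold (limma adjusted p = 0.0607). Lower members numbered 13 in limma without a trend, 0 with genes above the floor in all 4 libraries, where 4 of the 6 were not tested and omt3 and SPNCRNA.917 missed the threshold (limma adjusted p = 0.0553 and 0.0507), and 3 with 50 added to each value. Without annotated overlap 8 members were higher and 1 lower, and over 100 kb from the ends 7 were higher. Leaving out 1 library gave 13 to 21 higher and 4 to 6 lower members, 9 to 14 higher near the ends and 4 to 7 elsewhere or unplaced. The median change of members was -0.12 with quantile normalization, 0.10 with median centring, 0.086 with 50 added, 0.13 to 0.22 without 1 library, 0.14 over 100 kb from the ends, 0.15 when chosen on WT replicate 1 and 0.11 within number 1. Over all genes, quantile normalization called 574 higher and 275 lower, and median centring 615 and 338. The list of nuclear decay genes had 0 higher in limma without a trend, with median centring, with no filter and in every fit without 1 library. The changes of SPNCRNA.380, -0.11 with quantile normalization, and of SPNCRNA.512, -1.13 to 0.90 without 1 library, turned sign. Libraries of the same number also share a prefix in their titles, which the labels do not explain, so a pairing is possible and not established. Differences between replicates correlated between the groups at 0.451 over all genes and 0.408 over the members. With the replicate number as a block, 37 members were higher and 21 lower, 20 of the higher ones elsewhere or unplaced, the nuclear decay list had 5 higher and 1 lower, and all genes had 1380 higher and 847 lower. All 24 and 6 remained called under the block, beside 28 others. In that limma fit prl61 had an adjusted p of 5.37e-147, which so few libraries cannot give by themselves. The block fit thus rests on variance pooled over genes, and the calls kept there add little support. The causes of these shifts were not tested. Within-number values, position counts, set2 and the decay list were recomputed by alternatives chosen after seeing the data. Unknown depth in 3 libraries and the floor limit what can be said of falls.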
